A study of Mus musculus with 9 samples.

Results

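Chaperones, their J-protein partners and the enzymes that fold proteins were followed in tail skin of mice in 3 states, normal, surgical sham and lymphedema. Members were taken by gene symbol from the annotation of the array. They comprised the DnaJ proteins of classes A, B and C, the heat shock protein genes whose symbols start with Hspa, Hspb, Hspd, Hspe, Hsph or Hsp90, the Cct and Bag genes, the protein disulfide isomerases (Pdia genes and P4hb), the Fkbp genes, the cyclophilins Ppia to Ppih, and Tcp1, Canx and Calr. The rule used no measured value and found 99 of the 10554 genes named on the array, on 295 of its 42624 features. Of these, 91 had at least 1 clone with a value on all 9 arrays and were tested among 8644 genes. The other 8 (Cct8l1, Dnajb13, Dnajc5b, Dnajc12, Fkbp2, Hspa4, Hspb9 and Hspbap1) lacked a value on 1 or more arrays in every clone.

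The mice were female SKH-1 animals, hairless and immunocompetent, studied at 3 weeks of age. In lymphedema the tail skin was cut around its circumference at 16 mm from the base and the lymphatic trunks, made visible with methylene blue, were cauterized. Sham animals had the incision and the dye without cautery, and normal animals had no surgery. On day 14, RNA of the distal tail skin, freed of cartilage, was pooled from 3 mice at a time. Each state had 9 mice in 3 pools and each pool was hybridized once to a cDNA array with 2 colors, against RNA of whole late-stage embryos, so that n = 3 pools in every state and the number of arrays limits the precision. Values are on a log2 scale, and a positive one stands for more RNA in the tail than in the embryo reference. A single value is such a log2 ratio, not a level, so that values of different genes were not ranked by abundance. A difference is a log2 ratio of one state minus that of another.

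Chaperones hold unfolded proteins and hand them on, and each cell compartment has a set of its own. In the cytosol HSP70 proteins bind short exposed stretches with the help of J-proteins, BAG proteins release the substrate, HSP90 matures signaling proteins, and the CCT ring encloses actin and tubulin. In the endoplasmic reticulum BiP (Hspa5), Grp94 (Hsp90b1), the lectins calnexin and calreticulin, the disulfide isomerases and cyclophilin B fold secreted and membrane proteins, collagen among them. Heat and damaged proteins raise the cytosolic set through heat shock factor, and unfolded proteins in the endoplasmic reticulum raise the other set through the unfolded protein response.

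Missing values had a pattern by array. Signal of 186 of the 42624 features was kept only in the normal pools and in lymphedema array 1, and 2 of those features belong to members. The next of the 126 ways to divide the arrays into 4 with signal and 5 without had 45. The reverse pattern, signal on the other 5 arrays only, had 1 feature. Divisions of other sizes were not counted. On this pattern the arrays were taken as a set of 4 and a set of 5, which the labels do not name. With the set as a block, lymphedema against normal rests on lymphedema array 1 alone. Sham array 3 stood apart from the other sham arrays. The median log2 ratio of 14 macrophage genes was 0.63 on it, against −0.39 and −0.64 on sham arrays 1 and 2, −0.60 to −0.36 in normal and 0.74 to 0.93 in lymphedema. In whole skin, fewer cells of a type and less RNA per cell cannot be told apart.

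Lymphedema against normal skin asked what the lymphatic block and the surgery together did. Of the 91 members, 4 rose and 0 fell at an adjusted p under 0.05 (limma, Benjamini-Hochberg over the 8644 genes), and of all genes 2.83% rose and 0.602% fell. The 4 were the J-protein genes Dnajb5, Dnajc13 and Dnaja1 and the cyclophilin gene Ppic. At an unadjusted p under 0.05, 21 members were higher and 2 lower, against 14.8% and 5.71% of all genes. The median difference of the members was 0.16 and that of all genes 0.10. The share of the 91 members past the threshold was thus near that of all genes, and the compartments were unlike each other. The 24 members of the endoplasmic reticulum had a median of 0.47 with 21 positive, the 10 of mitochondria 0.27 with 7 positive, and the 53 of cytosol or nucleus 0.09 with 33 positive. Differences were positive in 61.9% of all genes. These are descriptions of the groups, since no test compared one compartment with another.

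**Figure D1:**
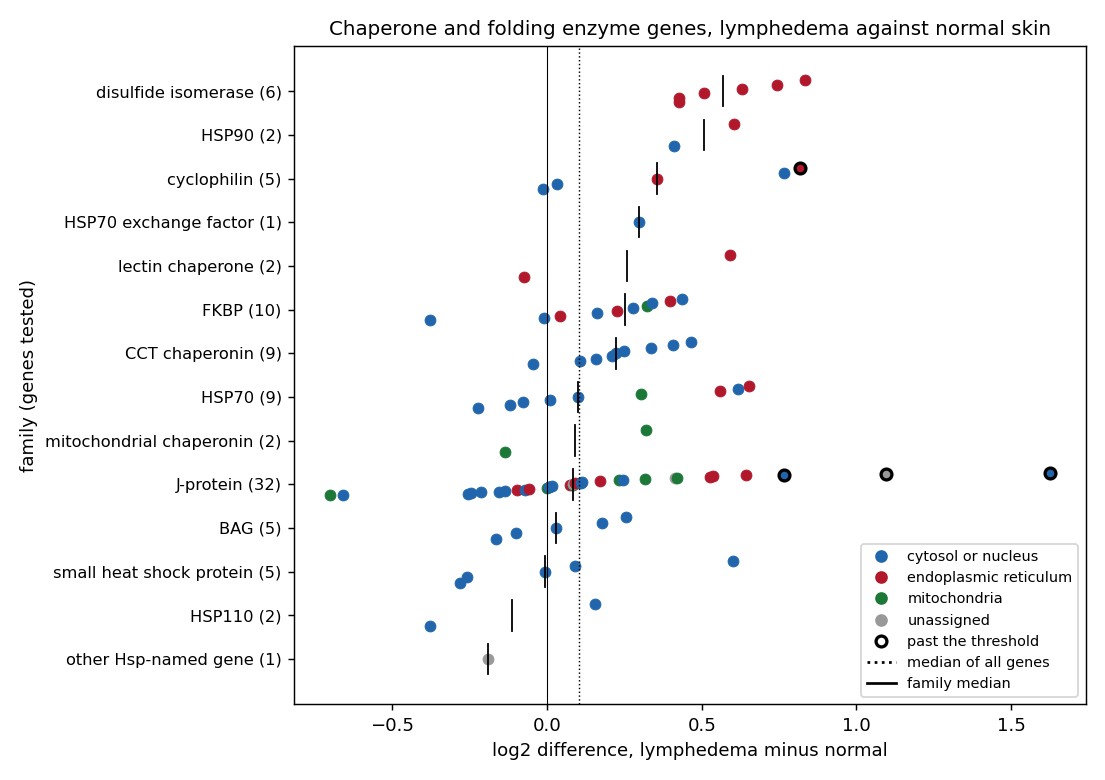
Log2 difference of lymphedema minus normal skin (horizontal axis) for the 91 tested members, 1 point per gene (clones averaged, 3 arrays per state), by family with the number of genes tested. Colors give the compartment, black rings the 4 genes past the threshold, short bars the family medians and the dotted line the median of all 8644 genes, 0.10; the 6 disulfide isomerases all lie between 0.43 and 0.83.

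Dnajb5, a cytosolic J-protein of the heat shock family also known as Hsc40, had log2 ratios of −0.38, −0.21 and −0.28 on the normal arrays, 0.02, 0.51 and 1.20 on the sham arrays and 1.54, 1.79 and 0.67 on the lymphedema arrays. All lymphedema arrays lay above all normal arrays, and sham array 3 lay above lymphedema array 3. The difference of lymphedema from normal was 1.62 (standard error 0.324, 3.08-fold, adjusted p = 0.0275 from limma). It rests on 1 clone.

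Dnajc13, an endosomal J-protein that acts in membrane traffic with the retromer, had −1.18, −0.90 and −0.96 in normal, −0.46, −0.28 and −0.45 in sham and −0.16, 0.31 and 0.10 in lymphedema. The 3 states did not overlap on this clone, and sham lay between the others. The difference from normal was 1.10 (standard error 0.179, 2.14-fold, adjusted p = 0.0175 from limma). The array holds 3 clones of the gene, and the other 2, which have no value on normal array 1, had differences of 0.05 and 0.50. With these clones included the gene had 0.84, and 0.52 where the missing values were imputed, and it did not pass (adjusted p = 0.110 and 0.106 from limma). Without imputation normal array 1 holds the first clone alone and the other arrays average all clones, so the 0.84 mixes clones across arrays.

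Dnaja1, an HSP70 partner of the cytosol, had −0.82, −1.23 and −0.92 in normal, −0.45, −0.74 and −0.61 in sham and −0.23, −0.21 and −0.23 in lymphedema, again without overlap. The difference was 0.77 (standard error 0.171, 1.70-fold, adjusted p = 0.0374 from limma). Its 4 tested clones disagreed, with −0.02, 0.23, 0.50 and 2.36. Only the last of these passed when every feature was tested on its own. With the median of the clones the gene had 0.28 and with 1 clone per gene 0.23, and it did not pass with either (adjusted p = 0.51 and 0.55 from limma).

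Ppic, cyclophilin C, a prolyl isomerase of the secretory pathway, had −1.43, −1.48 and −1.74 in normal, −1.01, −1.39 and −1.13 in sham and −1.02, −0.58 and −0.60 in lymphedema. The lymphedema arrays lay above the normal ones and overlapped with sham array 1. The difference was 0.82 (standard error 0.190, 1.76-fold; limma, adjusted p = 0.0425), and its 2 clones had 0.78 and 0.85.

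None of the 4 passed with the array set as a block. The blocked differences were 1.83 for Dnajb5, 0.85 for Dnajc13, 0.76 for Dnaja1 and 0.53 for Ppic, each with lymphedema array 1 as the only lymphedema array (adjusted p = 0.25 to 0.47 from limma). The count of members past the threshold was 0 without normal array 1, normal array 2 or lymphedema array 2. It was 1 without normal array 3 or lymphedema array 1 and 2 without lymphedema array 3. Without sham array 3 it was 11 (10 higher, 1 lower), and that array enters this comparison only through the estimate of the spread. The shares of all genes past the threshold in these fits are not given here.

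**Figure D2:**
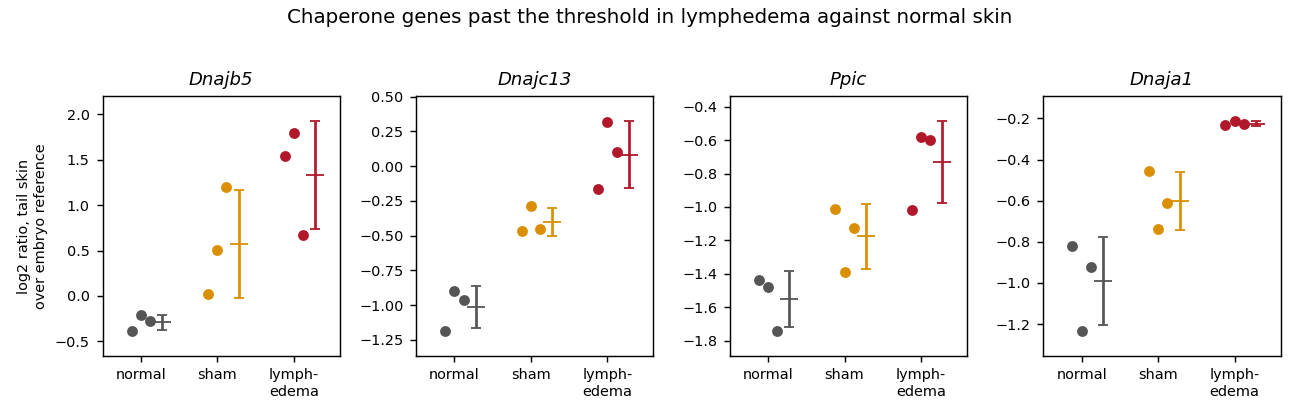
Log2 ratio of tail skin over embryo reference (vertical axis) on each array for the 4 genes past the threshold in lymphedema against normal skin, with the mean and SD of the 3 arrays beside the points. The normal arrays lie lowest for each gene, and for Dnajb5 sham array 3 reaches 1.20, above lymphedema array 3 at 0.67.

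Among the chaperones of the endoplasmic reticulum, 12 of 24 were higher at an unadjusted p under 0.05 and 0 lower, against 14.8% and 5.71% of all genes. The 12 became 7 without normal array 2. They became 8 without normal array 1, after quantile normalization or with arrays scaled to 1 median absolute deviation. The shares of all genes at that p in these fits are not given here, so the change is not read as one in the members. With the array set as a block, where lymphedema array 1 stands alone, the median difference of the 24 was 0.45 and that of all genes 0.08. Of the 24, 14 had all lymphedema arrays above all normal arrays, against 23.6% of all genes, and 0 had them all below, against 10.2%. Only Ppic passed the adjusted threshold. SAM at 5%, the kind of test in the study's methods, called 13 of the 24 higher, against 17.9% of all genes. Of the 53 cytosolic members it called 8 higher and of the 10 mitochondrial ones 1. It was run here on the 8644 clone-averaged genes without the study's intensity filter and imputation, so these are not the study's own calls. On each array the median log2 ratio of the 24 genes was −0.91, −0.83 and −0.88 in normal, −0.69, −0.78 and −0.46 in sham and −0.52, −0.50 and −0.60 in lymphedema. Every lymphedema array lay above every normal array, and sham array 3 lay highest. The cytosolic medians ran from −0.28 to −0.23 in normal and from −0.23 to −0.06 in lymphedema. They overlapped only in that lymphedema array 1, at −0.234, lay just below normal array 1, at −0.23. Under every alternative setting with a value for each gene, the median difference of the 24 stayed positive, from 0.27 after quantile normalization, where that of all genes was 0.02, to 0.51.

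**Figure D3:**
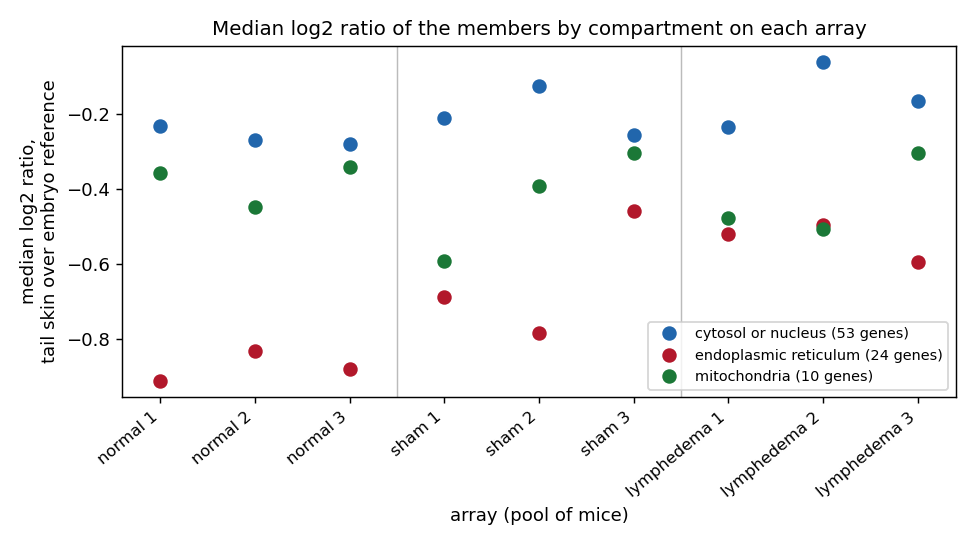
Median log2 ratio of tail skin over embryo reference (vertical axis) of the members in each compartment, 1 point per compartment and array. The endoplasmic reticulum median lies at −0.91 to −0.83 on the normal arrays and at −0.60 to −0.50 on the lymphedema arrays, and the cytosolic median spans −0.28 to −0.06 over all arrays.

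The disulfide isomerases, which form and shuffle disulfide bonds of secreted proteins, were all positive. All 6 had their lymphedema arrays above their normal arrays, with differences of 0.43 to 0.83 and a median of 0.57, and none passed. In sham against normal all 6 were positive too, with a median of 0.39, where that of all genes was 0.06. Of the 6, 3 had all sham arrays above all normal arrays, against 9.72% of all genes. In lymphedema against sham the median of the 6 was 0.29 and that of all genes 0.06. Pdia4 (ERp72) had −1.38, −1.63 and −1.14 in normal, −0.83, −1.31 and −0.70 in sham and −0.49, −0.39 and −0.78 in lymphedema. Its difference was 0.83 (standard error 0.214, adjusted p = 0.0600 from limma), with 0.63 to 1.14 over 3 clones. P4hb, which is both a disulfide isomerase and the beta subunit of collagen prolyl 4-hydroxylase, had −1.21, −1.42 and −1.31 in normal, −0.76, −1.15 and −0.72 in sham and −0.81, −0.56 and −0.69 in lymphedema. Its difference was 0.63 (standard error 0.177), with adjusted p = 0.0780 from limma, and the 3 clones ran from 0.59 to 0.70. Pdia2 had 0.74, Pdia5 0.51, Pdia6 0.43 and Pdia3 (ERp57), which serves the lectin chaperones, 0.43. For these 4 genes sham array 3 lay among or above the lymphedema arrays.

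Hspa5, BiP, had −1.62, −1.44 and −1.07 in normal, −0.88, −0.73 and −0.95 in sham and −0.66, −0.76 and −1.04 in lymphedema. The sham and lymphedema arrays overlapped, and both lay above the normal ones. The difference of lymphedema from normal was 0.56 (standard error 0.192; limma, adjusted p = 0.132), and all 8 clones were positive, from 0.25 to 0.88. Hsp90b1, Grp94, had −1.31, −1.23 and −1.04 in normal, −1.01, −0.84 and −0.75 in sham and −0.49, −0.53 and −0.75 in lymphedema. Its difference was 0.60 (standard error 0.168, adjusted p = 0.0776 from limma). The 8 clones ran from −0.13 to 1.21, with 7 positive and 1 negative. Hsp90b1 passed in 6 of 22 alternative settings.

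Of the lectin chaperones, which retain glycoproteins until they are folded, calreticulin (Calr) had −0.37, −0.45 and −0.03 in normal and 0.54, 0.27 and 0.12 in lymphedema, a difference of 0.59 (standard error 0.195, adjusted p = 0.118 from limma). Calnexin (Canx), its membrane-bound relative, had −0.17, 0.11 and 0.22 in normal and −0.03, −0.06 and 0.03 in lymphedema, a difference of −0.07 with a 95% interval of −0.58 to 0.43. Hspa13, a microsomal HSP70, had 0.65 (adjusted p = 0.0777 from limma). The J-proteins of this compartment had a median of 0.13 over 8 genes. Dnajc16 had 0.64 and Dnajc10, a J-protein with disulfide reductase activity, 0.54 (adjusted p = 0.0744 and 0.149 from limma), while Dnajc3, Dnajb9 and Dnajb11, which partner BiP, had 0.08, 0.17 and −0.10.

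**Figure D4:**
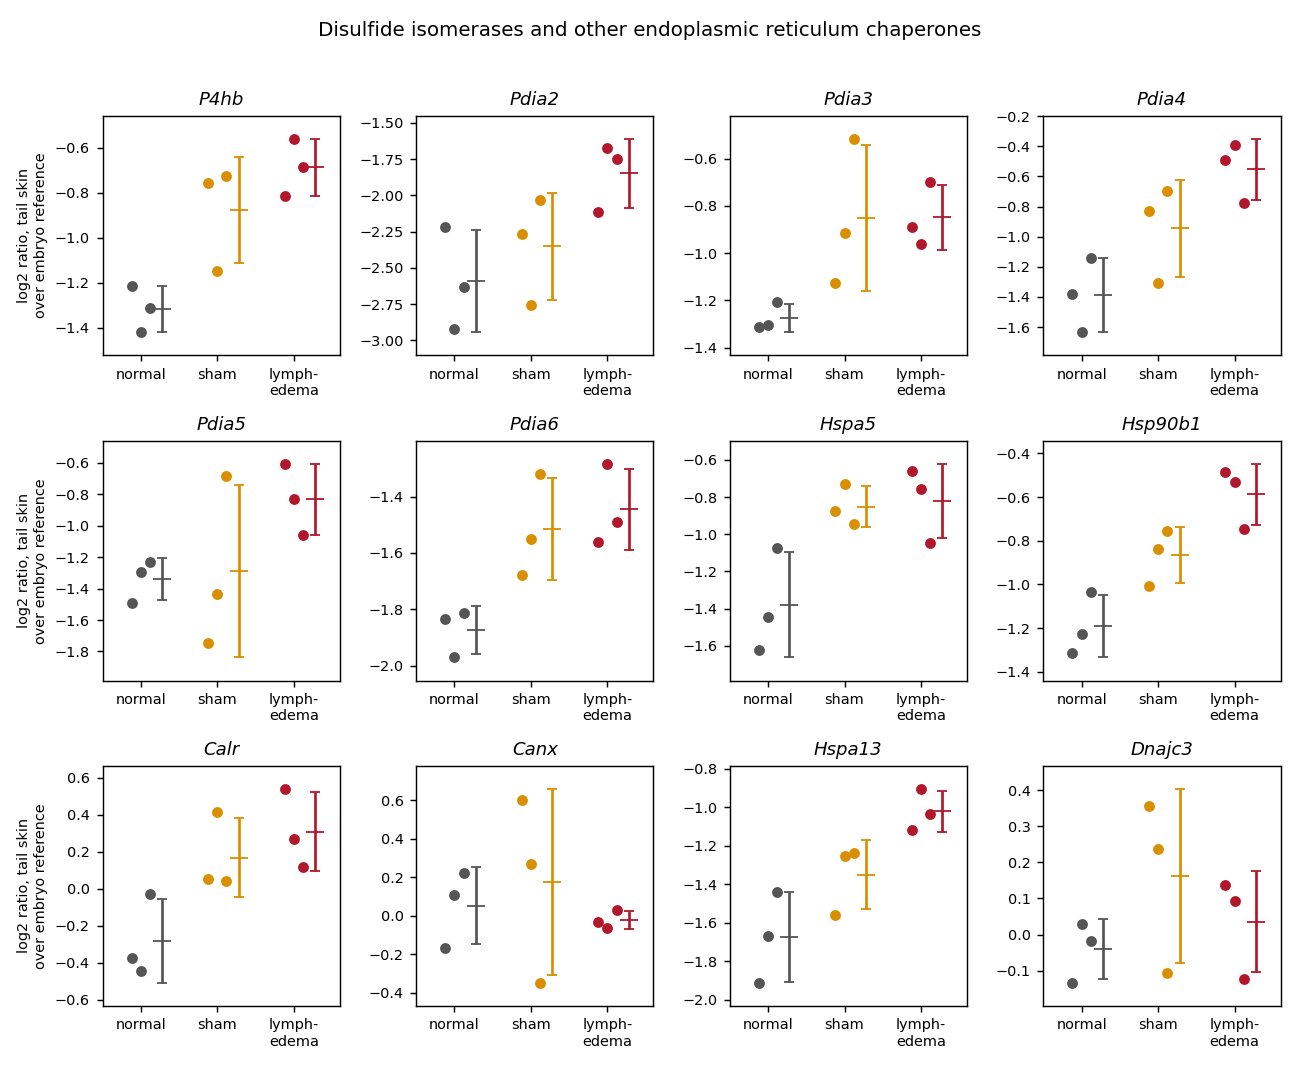
Log2 ratio of tail skin over embryo reference (vertical axis, own scale for each gene) on each array for the 6 disulfide isomerases and 6 other chaperones of the endoplasmic reticulum, with the mean and SD of 3 arrays beside the points. The lymphedema points lie above the normal points for 10 of the 12 genes, and for Canx and Dnajc3 they overlap.

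The endoplasmic reticulum stress element, CCAAT and CCACG with 9 bases of any kind between them, is bound by the transcription factors NF-Y and ATF6 at the promoters of many of these genes. Promoter windows were read from RefSeq (GRCm38.p6) for 85 of the 99 members. In the 250 bases before the start, on either strand, the motif stood in 0.130% of 27025 genes with a window (35 genes) and in 6 of the 85 members, all 6 among the 23 members of the endoplasmic reticulum with a window. The stretches are shown with CCAAT and CCACG, or their complements, in capitals and 20 bases on each side, 5′ to 3′ on the strand of the gene, because they mark which members carry the motif.
Hspa5, chr2:34772005-34772063, plus strand: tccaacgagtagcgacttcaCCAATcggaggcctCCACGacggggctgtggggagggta
Hsp90b1, upstream site, chr10:86705618-86705676, minus strand: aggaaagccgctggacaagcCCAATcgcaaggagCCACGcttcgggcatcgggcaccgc
Hsp90b1, downstream site, chr10:86705513-86705571, minus strand: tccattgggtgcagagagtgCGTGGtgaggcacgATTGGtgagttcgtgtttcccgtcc
Calr, chr8:84847055-84847113, minus strand: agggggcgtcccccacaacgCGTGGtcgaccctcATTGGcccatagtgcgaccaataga
Canx, chr11:50325780-50325838, minus strand: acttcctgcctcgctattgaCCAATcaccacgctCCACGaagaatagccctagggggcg
Pdia6, chr12:17266471-17266529, plus strand: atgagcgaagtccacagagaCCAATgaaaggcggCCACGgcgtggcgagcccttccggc
Dnajc3, chr14:118937807-118937865, plus strand: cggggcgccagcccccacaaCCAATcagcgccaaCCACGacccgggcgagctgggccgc

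The motif ends 47 bases before the start of Hspa5, and the 6 genes with it did not behave alike. Lymphedema minus normal was 0.60 for Hsp90b1, 0.59 for Calr, 0.56 for Hspa5 and 0.43 for Pdia6, but 0.08 for Dnajc3 and −0.07 for Canx. Their median was 0.49, and that of the 16 tested members of the endoplasmic reticulum without the motif in the window was 0.41. A match of letters is not a bound site.

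The heat shock list, mostly heat-inducible genes of the cytosol, held 19 measured genes, 14 of them members, with a median of −0.01 in lymphedema against normal and 8 positive, against 61.9% of all genes. Dnaja1 was the only one past the threshold, where 2.83% of all genes rose. At an unadjusted p under 0.05, 4 were higher and 1 lower, against 14.8% and 5.71% of all genes. All lymphedema arrays lay above all normal arrays in 5 and below them in 2, against 23.6% and 10.2%. The difference between this list and the members of the endoplasmic reticulum was not tested. Hspa1a, the main inducible HSP70, had log2 ratios of 1.67, 2.19 and 2.15 in normal, 3.44, 2.50 and 1.93 in sham and 1.97, 1.91 and 1.77 in lymphedema. Its near-identical neighbor Hspa1b had 1.47, 2.35 and 2.72 in normal, 3.78, 2.88 and 1.72 in sham and 2.79, 1.75 and 1.76 in lymphedema. The differences of lymphedema from normal were −0.12 (95% interval −0.81 to 0.58) and −0.08 (−1.15 to 0.99), and sham array 1 was highest for both genes. Each rests on 1 cDNA clone, and clones of such a pair can bind RNA of either gene, so the 2 are not separate measurements. Dnajb1, the inducible J-protein Hsp40, was 0.39, 0.61 and 0.67 in normal and −0.29, 0.44 and −0.47 in lymphedema, a difference of −0.66 (standard error 0.232, adjusted p = 0.139 from limma), with −0.96 and −0.36 in its 2 clones. Hsph1 (Hsp105), Hspb1 (Hsp25) and Bag3, a co-chaperone induced with them, had 0.16, −0.28 and −0.17 with overlapping arrays.

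**Figure D5:**
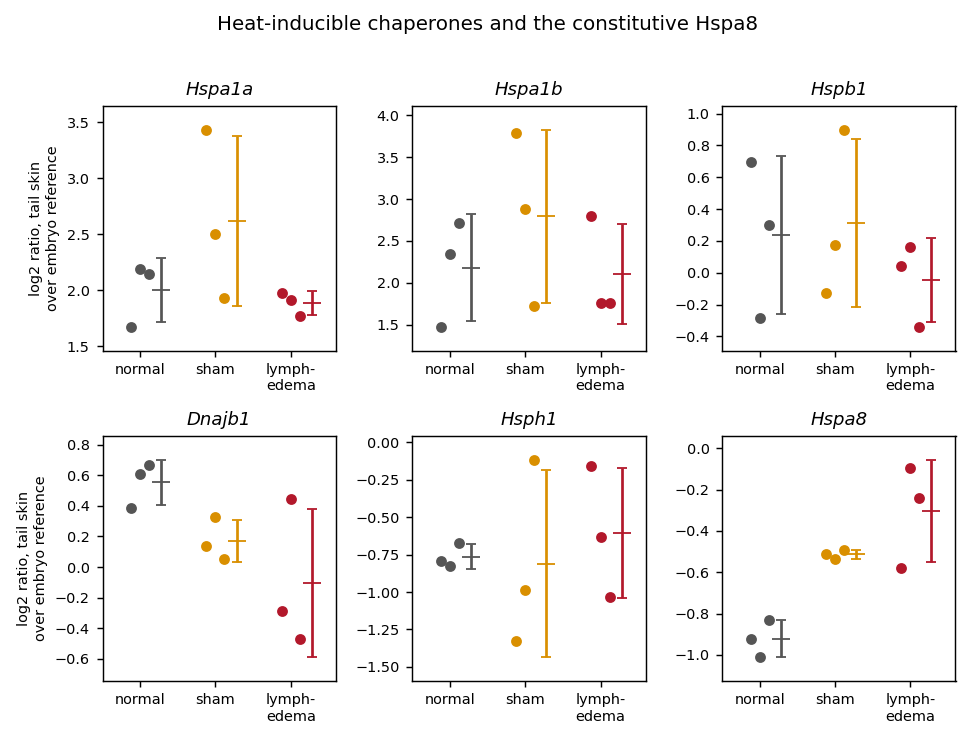
Log2 ratio of tail skin over embryo reference (vertical axis, own scale for each gene) on each array for 5 heat-inducible chaperone genes and Hspa8, with the mean and SD of 3 arrays beside the points. The lymphedema and normal arrays overlap for Hspa1a, Hspa1b, Hspb1, Dnajb1 and Hsph1, and for Hspa8 every normal array lies below every sham and lymphedema array.

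The constitutive Hspa8 (Hsc70) had −0.92, −1.01 and −0.83 in normal, −0.51, −0.54 and −0.49 in sham and −0.58, −0.09 and −0.24 in lymphedema. The difference of Hspa8 from normal was 0.62 (standard error 0.173; limma, adjusted p = 0.0777), and the 6 clones were all positive, from 0.36 to 0.79. Hsp90aa1, the stress-inducible HSP90 of the cytosol, had −1.73, −1.81 and −1.90 in normal and −1.48, −1.27 and −1.46 in lymphedema, without overlap. Its difference was 0.41 (adjusted p = 0.177 from limma), and the 8 clones ran from −0.13 to 0.90, with 7 positive and 1 negative. Ppia, cyclophilin A, an abundant cytosolic isomerase that activated cells also secrete, had −0.11, −0.22 and −0.23 in normal, 0.40, 0.49 and −0.06 in sham and 0.46, 0.90 and 0.38 in lymphedema. Its difference was 0.76 (standard error 0.204, adjusted p = 0.0676 from limma), from 0.57 to 0.90 over 3 clones. The 5 cyclophilin genes had a median of 0.36 with 4 positive, and Ppic alone passed. Ppib, cyclophilin B, had 0.36 in lymphedema and 0.33 in sham, both against normal, and its 3 clones ran from 0.07 to 0.76 in lymphedema against normal.

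The core letters of the heat shock element, GAANNTTC, a palindrome that reads alike on either strand, stood in the same window of 7.73% of the 27025 genes and of 12 of the 85 members. None of the 23 members of the endoplasmic reticulum with a window held it. A longer form, GAANNTTC followed by 2 bases and GAA on either strand, stood in 0.514% of genes and in 3 members, Dnajb6, Hspd1 and Hspe1. Hspd1 and Hspe1, the mitochondrial chaperonin and its lid, are read in opposite directions from a shared stretch of chromosome 1. The same GAANNTTC lies upstream of both. The longer matches marked below overlap over it and extend to opposite sides, so they are not the same match. The stretches of Dnaja1, Hspa1a, Hspd1 and Hspe1 are shown with GAA and TTC in capitals, since the differences of these genes were unlike with GAANNTTC upstream. The stretch of Hspa1b has the same 48 bases as that of Hspa1a.
Dnaja1, chr4:40722324-40722371, plus strand: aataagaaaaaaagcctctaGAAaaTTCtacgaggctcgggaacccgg
Hspa1a, chr17:34972233-34972280, minus strand: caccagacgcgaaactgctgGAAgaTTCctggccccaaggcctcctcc
Hspd1, chr1:55088039-55088091, minus strand: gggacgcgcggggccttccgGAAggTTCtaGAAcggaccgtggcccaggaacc
Hspe1, chr1:55088044-55088096, plus strand: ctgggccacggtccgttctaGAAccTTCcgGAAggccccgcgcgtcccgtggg

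Over the 11 tested members with GAANNTTC the median difference of lymphedema from normal was 0.03, and over the 68 with a window and without it 0.16. The arrangement TTCNNGAA was not searched on its own, so members without GAANNTTC are not shown to lack a heat shock element. The 68 include all tested members of the endoplasmic reticulum with a window, and no comparison was made within a compartment. For the longer form the order was the other way, with 0.245 over 3 tested members and 0.135 over the 76 without it. Hspd1 had −0.13, but its 6 clones fell apart, with 4 between −0.12 and 0.27 and a log2 ratio in normal skin of −1.54 to −1.01, and 2 at −0.71 and −0.74 with normal ratios of 1.06 and 1.18. Hspe1 had 0.32, with −0.09 to 0.74 over 3 clones.

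The CCT chaperonin had small differences. Of 9 genes 8 were positive, from −0.04 for Cct6b to 0.46 for Cct2, with a median of 0.22, and 0 passed or had an unadjusted p under 0.05. Cct8 had −1.13, −0.93 and −0.97 in normal, −0.81, −0.60 and −0.66 in sham and −0.87, −0.58 and −0.58 in lymphedema, and all normal arrays lay lowest. The direction of 3 of the 9 turned within the array set, Cct5 at −0.11, Cct6a at −0.11 and Cct6b at 0.14, where the median was 0.14.

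The 5 BAG genes ran from −0.17 to 0.26 with a median of 0.03. The 5 small heat shock genes had a median of −0.01, and Hspb2, a muscle-expressed member, had 0.60 from −2.28, −1.88 and −2.08 in normal to −1.13, −1.56 and −1.76 in lymphedema (adjusted p = 0.235 from limma). The 10 FKBP genes, prolyl isomerases that bind FK506 in several cases, had a median of 0.25, from −0.38 for Fkbp15 to 0.44 for Fkbp5, and with the array set as a block the median was −0.02 with 5 of 10 positive. The 32 J-proteins, which hold 3 of the 4 members past the threshold, had a median of 0.08 and spanned the widest range, from −0.70 for Dnajc30, a mitochondrial J-protein, to 1.62 for Dnajb5. Dnajc30 had 0.29, 0.35 and 0.41 in normal and −0.36, −0.65 and −0.04 in lymphedema on 1 clone (adjusted p = 0.135 from limma). Hspa9, the HSP70 of mitochondria, had 0.30 (adjusted p = 0.393 from limma) and turned to −0.06 within the array set.

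Sham against normal skin asked what the incision and dye did without the cautery. None of the 91 members and none of the 8644 genes passed (limma; 0% of all genes). At an unadjusted p under 0.05, 11 members were higher and 0 lower, against 5.54% and 2.38% of all genes, and 18 members had all sham arrays above all normal arrays, against 9.72%. SAM at 5% called 0 members and 0.231% of all genes. The members of the endoplasmic reticulum had a median of 0.24 with 23 of 24 positive and 5 at an unadjusted p under 0.05, and all genes a median of 0.06 with 59.6% positive. The 5 were Hspa5 at 0.53, P4hb at 0.44, Calr at 0.45, Dnajb14 at 0.71 and Pdia3 at 0.42. Without sham array 3 the median was 0.26 and 3 genes were under that p, in a fit whose share of all genes is not given here. The CCT genes had a median of 0.26 with 9 of 9 positive, and with the array set as a block 0.03 with 5 of 9 positive. Fkbp5, a glucocorticoid-induced co-chaperone of HSP90, had 0.25, 0.38 and 0.20 in sham, above the −0.76, −0.51 and −0.14 of normal, and −0.42, 0.38 and −0.07 in lymphedema, which overlapped with both. Its difference of sham from normal was 0.75 (standard error 0.230, adjusted p = 0.405 from limma). Hspa8 had 0.41, Ppia 0.46, Dnaja1 0.39, Dnajb5 0.87 and Dnajc13 0.61, each with all sham arrays above all normal arrays. With the array set as a block, sham is linked to normal through lymphedema array 1 alone, and then 25 of the 91 members turned their sign. In that fit Hspa8 had −0.0036 and Fkbp5 0.17, and 18 of the 24 members of the endoplasmic reticulum were positive. Their median was 0.19 and that of all genes 0.02.

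Lymphedema against sham skin asked what the cautery added to the incision. No member passed, against 0.0231% of all genes (2 genes). At an unadjusted p under 0.05, 5 members were higher and 1 lower, against 4.59% and 2.85% of all genes, which is near the background. The median of the members was 0.06, as was that of all genes. The members of the endoplasmic reticulum had a median of 0.12 with 17 of 24 positive, against 58.9% of all genes. This turned to −0.04 with 11 positive after quantile normalization, and without sham array 3 it was 0.19, so that a direction here rests on the scaling. Dnajc16 had 0.04, 0.43 and −0.07 in sham and 0.67, 0.76 and 0.71 in lymphedema, a difference of 0.58 on 1 clone (standard error 0.176, adjusted p = 0.505 from limma). Hspe1 had −2.10, −1.98 and −2.19 in sham and −1.65, −1.29 and −1.53 in lymphedema, a difference of 0.60 (standard error 0.200, adjusted p = 0.532 from limma), with all 3 clones positive. Dnajc13 had 0.48, Dnajb5 0.76 and Ppic 0.44. Hspa1a was the member that was lower, at −0.74 (95% interval −1.43 to −0.04, adjusted p = 0.648 from limma), with sham array 1 highest, and had −0.33 without that array. The 2 comparisons with normal share the normal arrays, and those with sham share the sham arrays, so that their values are not independent.

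Against the embryo, the members of the endoplasmic reticulum were low in normal tail skin, with array medians of −0.91 to −0.83, and the cytosolic members had −0.28 to −0.23. Pdia2 had a normal mean of −2.59 and Fkbp11 −2.49, while Hspa1a had 2.00, Hspa1b 2.18 and Hspa2, an HSP70 best known from testis, 1.30. These are ratios to whole-embryo RNA and were not tested. The list of 30 embryo genes measured on all arrays, which also have low ratios in tail skin, had a median difference of 0.36 in lymphedema against normal, with 24 positive and 1 past the threshold (Hbb-y, an embryonic globin, at 0.95, adjusted p = 0.0275 from limma). In sham against normal the median of the list was 0.02, and Hbb-y had 1.28 (adjusted p = 0.107 from limma). The part of a low ratio to the reference in the differences of the chaperone genes was not tested.

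Other genes of the folding pathways were taken from lists without the members. Of 31 other genes of folding, glycosylation and translocation in the endoplasmic reticulum, 1 rose and 0 fell in lymphedema against normal, with a median of 0.22, 25 positive and 9 higher at an unadjusted p under 0.05. Of all genes 2.83% rose, 61.9% were positive and 14.8% were higher at that p, and the lists that follow are to be read against these shares too. The 1 was Txndc5 (ERp46), a thioredoxin-like disulfide isomerase, at 0.94 (standard error 0.179, adjusted p = 0.0270 from limma). Of 20 genes of the unfolded protein response, 0 passed and 16 were positive, with a median of 0.20, and in sham against normal the median was 0.24 with 18 positive. Xbp1 and Atf4, a pair of its transcription factors, had 0.63 and 0.79 in lymphedema (adjusted p = 0.0566 and 0.109 from limma) and 0.61 and 0.80 in sham, both against normal. Of 7 genes of collagen folding, 0 passed and 5 were positive, with a median of 0.52. The other 2, Mia3 at −0.71 and P3h4 at −0.39, had all lymphedema arrays below all normal arrays (adjusted p = 0.127 and 0.409 from limma). Serpinh1, the collagen chaperone Hsp47, had 0.64 and P4ha1, an alpha subunit of prolyl 4-hydroxylase, 0.15 (adjusted p = 0.229 and 0.824 from limma). Of 23 cytosolic co-chaperones 0 passed, with a median of 0.14. St13, the HSP70-interacting protein Hip, had 0.76 and Stip1, which joins HSP70 to HSP90, 0.03 (adjusted p = 0.0566 and 0.948 from limma). Of 16 genes of mitochondrial proteostasis 0 passed, with a median of 0.19. Trap1, the mitochondrial HSP90, had 0.42 and Grpel1, the exchange factor of Hspa9, 0.18 (adjusted p = 0.184 and 0.728 from limma).

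Markers of other cell types moved between the same states. In lymphedema against normal, 7 of 14 macrophage genes rose with a median of 1.37, 4 of 8 neutrophil genes with 0.97, 3 of 7 genes of wound keratinocytes with 0.63 and 1 of 13 fibroblast and matrix genes with 0.66. None of them fell, and of all genes 2.83% rose. The fibroblast array medians ran from −1.96 to −1.80 in normal, from −1.35 to −1.03 in lymphedema and from −1.99 to −0.97 in sham, with sham array 3 highest. Of 16 skeletal muscle genes 0 passed, with 0.35 in lymphedema and 0.67 in sham against normal, and of 7 adipocyte genes 0 passed, with 0.26 in lymphedema. The part of these cells in the differences of the chaperone genes was not tested.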

How the data were processed

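RNA of 9 pools of tail skin was measured on cDNA arrays with 2 colors. Per the labels and methods, the authors extracted features with GenePix 4.0, subtracted background and normalized dyes in Expressionist. The deposited values are log2 ratios; the base is not stated and log2 was assumed, as is any centering by the authors. Array medians in the deposited table ran from −0.121 to −0.002, and 1.34% to 12.6% of values were missing. Depth is not defined for arrays, and signal intensities were not used here. The labels and methods give opposite dyes. On every array, 32 to 34 embryo genes had medians of 2.77 to 3.68 in the deposited direction and 17 adult skin genes −2.55 to −1.70, so the ratio was read as embryo over tail and its sign turned. This reads each array by itself and not the difference between states, in which some genes of both lists also moved.

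Each array was centered on its median. Features named by 1 gene with a value on all 9 arrays (15723) were averaged to 8644 genes and fitted with limma 3.58.1 in R 4.3.3 (lmFit, eBayes, group as the only term, all 9 arrays), with Benjamini-Hochberg adjustment at 0.05. Intervals are moderated 95% intervals. Compartments were assigned by hand from known location. The members, families, compartments, lists and named genes were chosen with earlier results of these data known. The symbol rule for the members itself reads no measured value. Named genes are those past the threshold, the highest and lowest of each family, fixed anchors and a few per list, and values of some fixed anchors are not given. Cct6a, Pdia2, Pdia5, Dnajb14, Dnajc10, Dnajc16, Mia3, P3h4 and Hbb-y, outside this rule, were picked with their values in view. The 3 pools of each state served as replicates. Replicate numbers shared between states did not pair the arrays. Other versions are Python 3.11.15 and matplotlib 3.10.9. On simulated arrays of lymphedema against normal with 8644 genes, limma recovered 59.0% of 2-fold and 89.0% of 4-fold changes, with 12 false calls. The simulated noise was independent between genes and held no array set and no array that stood apart, so these figures may not hold for the real arrays. Alternatives were other scalings and filters, 2 groups only, SAM, blocks, other choices of clone, and each array left out in turn. Sequences are from RefSeq (GRCm38.p6).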

Additional observations from a re-analysis of the deposited data

How the results depend on the processing

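Of the results with a count, sham against normal and lymphedema against sham had 0 members past the threshold under every alternative. The 4 members past it in lymphedema against normal became 2 without centering, 2 after quantile normalization, 2 with features on 2 of 3 arrays per group, 12 with the arrays of the 2 groups only, 25 with SAM at 5%, and 0 with the array set as a block and within an array set (12 at an unadjusted p under 0.05, with lymphedema array 1 as the only lymphedema array). SAM at 5% called 27.5% of the members and 20.1% of all genes in either direction. The shares of all genes under the other alternatives are not given here, so a change in these counts is not read as one in the members. With the replicate number as a block there were 2 (Dnajc13 and Dnajb5). Same-numbered arrays had correlated deviations of −0.24 to 0.28, so the numbers do not pair the arrays, and the block gave 0 in the other comparisons. Leaving out 1 array gave 0 to 11 members, with 0 without normal array 1, normal array 2 or lymphedema array 2, 1 without normal array 3 or lymphedema array 1, 2 without lymphedema array 3 and 11 without sham array 3. Over 22 alternatives Dnajb5 and Dnajc13 passed in 15, Dnaja1 in 9 and Ppic in 8.

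Among the named genes, signs turned for small differences of lymphedema from normal. They turned with other clone choices for Bag1 (−0.131 with the median of clones, −0.0333 with 1 clone), Hspb1 (0.306 with 1 clone), Hspd1 (0.272 with the median) and Ppig (0.0065 and 0.048). With the array set as a block and within a set they turned for 14 of the 91 members, among them Cct5 (−0.114), Cct6a (−0.105), Cct6b (0.139), Fkbp1a (−0.0813), Hspa1b (0.613), Hspa9 (−0.0629) and Ppig (0.0128). The others were Bag6, Dnajc5, Dnajc9, Dnajc25, Fkbp1b, Fkbp7 and Hspa14, from −0.196 to 0.0442. With the same block 25 members turned in sham against normal and 5 in lymphedema against sham. Scaling turned Fkbp9 (−0.0183 without centering, −0.0751 scaled to 1 median absolute deviation, −0.157 by quantiles), Hspa1a (0.129 scaled), Hspa1b (0.175 scaled), Hspe1 (−0.0131 by quantiles) and Hsph1 (−0.000624 by quantiles). Features on 2 of 3 arrays turned Hsph1 (−0.231, and −0.159 imputed). In sham against normal, Dnaja1 turned with 1 clone (−0.0703), and Hspa8 and Ppic with the block (−0.00364 and −0.0493). Leaving out 1 array turned Canx (−0.186 to 0.0101), Cct6b (−0.136 to 0.016), Dnajb11 (−0.195 to 0.0832), Hspa1b (−0.431 to 0.194), Hspb7 (−0.175 to 0.188), Hsph1 (−0.0683 to 0.366) and Ppig (−0.0994 to 0.091). A member that missed the threshold with 3 arrays per state is not shown to be equal.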
